A study of Mus musculus with 5 samples.

Results

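The matrix metalloproteases Mmp2, Mmp3, Mmp9, Mmp12, Mmp14 and Mmp19 and the tissue inhibitors of metalloproteases Timp1, Timp2 and Timp3 were followed through injury and repair of a mouse leg muscle. These 9 genes, of 18132 genes listed in any of the 4 count matrices, were chosen by name, and their UMIs (tagged mRNA molecules) were summed for each deposited cell label on each day. Cells came from the tibialis anterior of C57Bl/6 mice, which had either no injury or an injection of notexin, a snake venom toxin that kills muscle fibres and spares their stem cells. The muscle was digested with collagenase D and dispase II, red cells were lysed, live cells were sorted with propidium iodide and Calcein-AM, and their mRNA was tagged with 10x droplet 3′ v2 chemistry. Day 0 was uninjured muscle of females of 4 months, and its 2 runs form 1 matrix. Day 2 came from a female source of 7 months, day 5 from a female source of 4 months and day 7 from a male source of 4 months. With 1 matrix per day there is no replicate and no test of any difference between days, and day cannot be told apart from age at day 2 or from sex at day 7. The labels' protocols give no number of animals behind each matrix.

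Metalloproteases are zinc enzymes that cut collagens, elastin, laminins and many surface proteins, and most are made as inactive precursors. TIMPs bind their active sites and block them, and TIMP2 together with the membrane enzyme MMP14 also activates the MMP2 precursor. In injured muscle the enzymes open the matrix for migrating leukocytes and muscle progenitors and later trim new collagen, and the inhibitors set how far this goes.

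The 4 matrices held 5986701 to 57723171 UMIs in 2164 to 5680 labelled cells, and the median cell held 2018 (day 5) to 9683 UMIs (day 2). A total of 31 labels by day were deposited, 29 of them with at least 50 cells. Any 2 days shared 9 to 40 barcodes. The markers of FAPs (fibro-adipogenic progenitors, the collagen-making stromal cells of muscle) led the cells labelled FAPs on every day. Many other labels were led by markers of another type, by the mean over each list of markers. The day 2 cells labelled Immune were led by macrophage markers (a mean of 4133 cpm, UMIs of a gene per 1000000 UMIs of the label). Those labelled Macrophages/APCs were led by dendritic markers at day 2 (2137 cpm, with 1435 cpm for macrophage markers) and day 7 (3065 cpm). By the median, however, their dendritic markers stood at 108 cpm and their macrophage markers at 185 cpm at day 2. Those labelled Macrophages/APCs/T-cells at day 5 carried FAP markers at 469 cpm and NK or T cell markers at 447 cpm. Their macrophage markers stood at only 36.0 cpm. The cells labelled B cells carried dendritic markers, at 2223 cpm at day 2 and 1297 cpm at day 5, and the cells labelled Platelets carried endothelial markers, with Ppbp and Gp9 at 0. Endothelial cells held more FAP (1402 cpm) than endothelial marker mRNA (818 cpm) at day 0, and the 58 of day 2 more macrophage (1096 cpm) than endothelial (537 cpm). By the median marker both orders turned. FAP markers stood at 480 and endothelial markers at 901 cpm at day 0. Macrophage markers stood at 138 and endothelial markers at 658 cpm at day 2. Muscle stem cells and progenitors (MuSCs) were led by macrophage markers at day 2 (199 cpm, with 180 cpm for muscle stem markers) and day 7 (658 cpm, with 455 cpm for FAP and 291 cpm for muscle stem markers), and by FAP markers at day 5. Their median macrophage marker at day 2 stood at 29.0 cpm, below the median muscle stem marker at 130 cpm. At day 7 it stood at 182 cpm, below the median FAP marker at 406 cpm. Tenocytes were led by FAP markers on both days, the glial label by mature muscle markers, and Macrophages/APCs 2 by dendritic markers. The median FAP marker of tenocytes stood above their median tenocyte marker at day 0 (5518 and 3383 cpm). At day 7 it stood below (3050 and 3516 cpm). All intervals below are exact 95% intervals that cover counting error only, and log2 ratios are of cpm between the groups named.

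The division of the family between cell classes was read first, as the share of each gene's UMIs in labelled cells that a class held. FAP labels held most of the Mmp2 and Mmp3 mRNA on every day. Of Mmp2 they held 93.9%, 91.6%, 96.0% and 90.7% at days 0, 2, 5 and 7, although their share of all UMIs was 73.2%, 16.0%, 48.7% and 35.7%. Of Mmp3 they held 94.4%, 93.4%, 93.8% and 96.1%. The elastase gene Mmp12 lay outside the FAPs. The label Immune held 94.7% of its 38 UMIs at day 0, other immune labels 85.2% and macrophage labels 12.5% at day 2, and macrophage labels 92.3% at day 5 and 91.8% at day 7. No class held a fixed part of Timp2 or Timp3. The FAP share of Timp2 was 90.8% at day 0, 17.1% at day 2, 85.7% at day 5 and 47.9% at day 7, with 79.8% under other immune labels (mostly Immune) at day 2 and 42.6% under macrophage labels at day 7. Of Timp3, the endothelial label held 15.5%, 19.8%, 9.34% and 37.7% on the 4 days. These shares depend on how many cells of each class were captured, so levels within labels are given next.

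**Figure D1:**
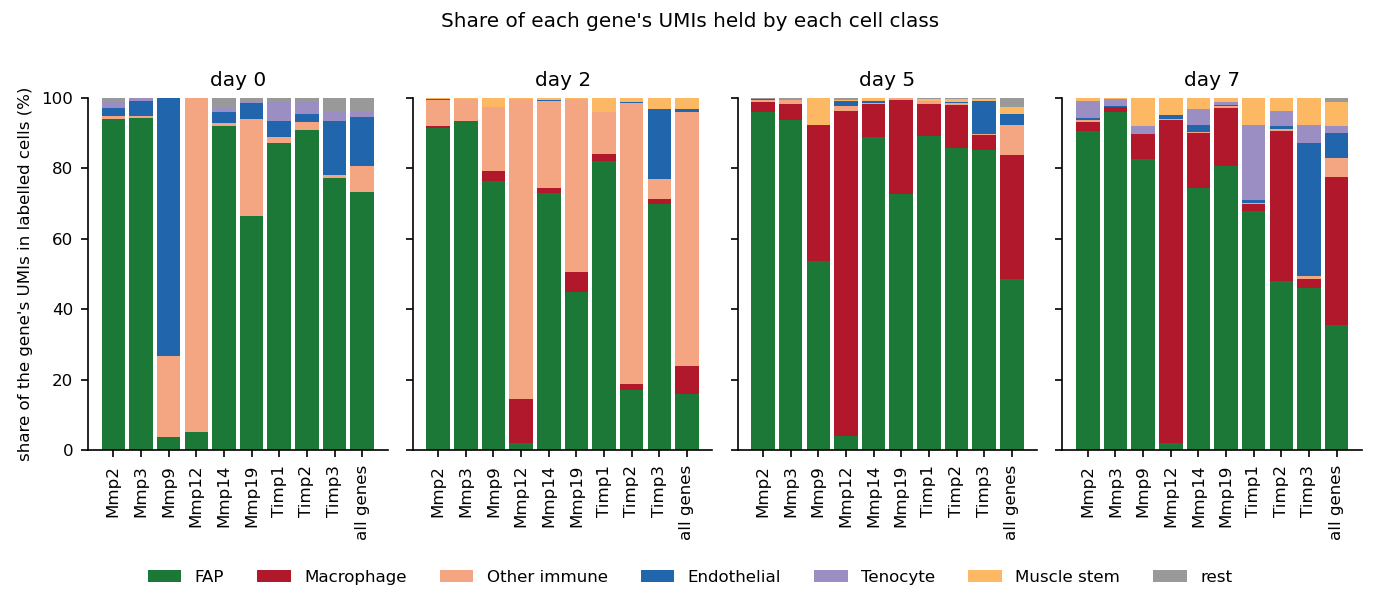
Share (%) of each gene's UMIs in labelled cells that each class of labels held, by day, with the share of all genes' UMIs as the last bar of each panel. FAP labels fill most of the Mmp2 and Mmp3 bars on all 4 days, macrophage and other immune labels fill the Mmp12 bar, and the Timp2 bar is mostly other immune at day 2.

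**Figure D2:**
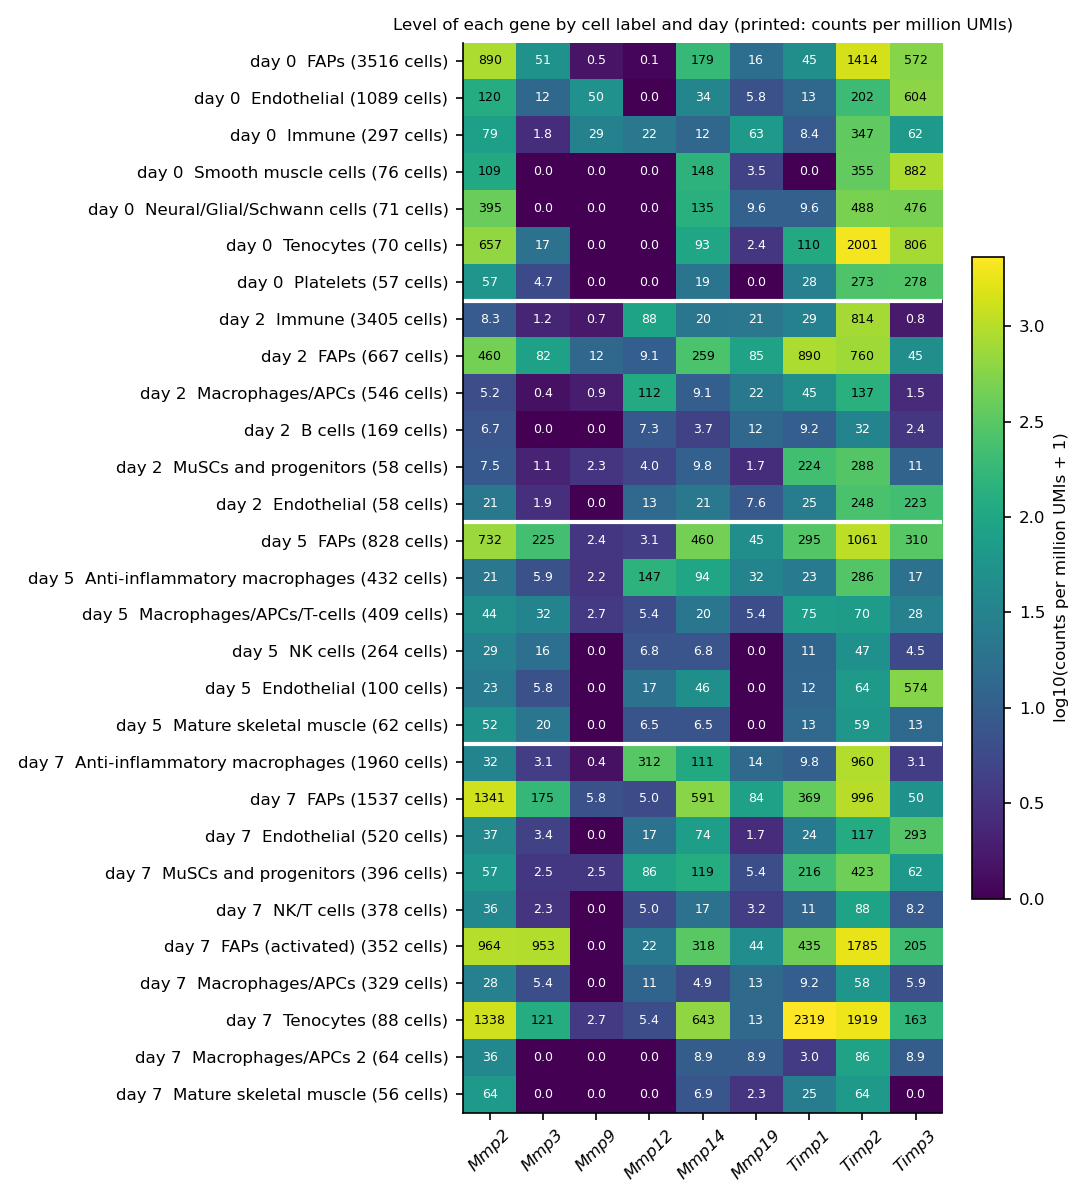
Level of the 9 genes in the 29 label and day groups of at least 50 cells. Colour is log10(cpm + 1), the printed number is the cpm, and white lines part the days; FAP and tenocyte rows are high for Mmp2 and Timp2 on the days they occur, and Mmp12 is highest under Anti-inflammatory macrophages at day 7 (312 cpm).

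Mmp2 encodes gelatinase A, which degrades basement membrane collagen and denatured collagen (GRCm38, chr8:92827291-92853420, plus strand). In cells labelled FAPs it stood at 890.1 cpm (876 to 905) in uninjured muscle, and after injury at 460.1 (446 to 474) on day 2, 732 (701 to 764) on day 5 and 1341 (1321 to 1362) on day 7. It was thus lowest at day 2 and highest at day 7, and no 2 of these intervals overlap. Day 7 FAPs (activated), a separate label, stood at 964 cpm (922 to 1006). Tenocytes, the cells of tendon, stood at 657 cpm at day 0 and 1338 (1256 to 1424) at day 7, the latter overlapping the day 7 FAPs. Vessel and macrophage labels lay far below these stromal cells. Endothelial cells stood at 119.6 cpm (108 to 132) at day 0 and at 21.0 to 37.1 cpm later, and 32 of their 109 UMIs at day 7 lay in 1 cell. In day 0 endothelial cells the FAP markers reached 12.8% (their median) of what FAPs held, and Mmp2 reached 13.4%. Cells labelled Anti-inflammatory macrophages stood at 20.7 cpm at day 5 and 31.5 cpm at day 7. There Mmp2 was at 2.35% of the day 7 FAP level, and the FAP markers were at a median of 1.07% (0.825% to 8.05%). A UMI of Mmp2 was seen in 97.3% of day 7 FAPs (median 7669 UMIs) and in 8.73% of NK/T cells (median 3946.5 UMIs), given for comparison. After thinning each cell to 1000 UMIs these shares were 69.9% and 2.65%.

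Mmp14 encodes the membrane-anchored MT1-MMP (chr14:54431612-54445364, plus strand), which cuts fibrillar collagen at the cell surface. FAPs stood at 179 cpm (173 to 186), 259 (249 to 269.6), 459.8 (436 to 485) and 591 (578 to 605) at days 0, 2, 5 and 7. Each later day stood above the one before beyond counting error. FAPs (activated) were lower at 318 cpm (294 to 343), and day 7 tenocytes stood at 643 cpm (587 to 703) against 92.8 cpm at day 0. The smooth muscle label, present at day 0 alone, stood at 148 cpm (106 to 199), overlapping the FAPs of that day. Unlike Mmp2, Mmp14 mRNA was also counted in Anti-inflammatory macrophages at a level well above their FAP marker content. They stood at 93.8 cpm (78.2 to 112) at day 5 and 111 cpm (106 to 116) at day 7, the latter 18.8% of the FAP level. A UMI was seen in 44.0% of these cells at day 7 (10.1% after thinning) and in 3.97% of NK/T cells (0.794% after thinning). Endothelial cells stood at 33.5 cpm at day 0, with 23 of 104 UMIs in 1 cell, at 21.0 and 46.4 cpm at days 2 and 5, and at 73.9 cpm (64.4 to 84.5) at day 7. They were below the Anti-inflammatory macrophages beyond counting error at day 7, while the day 5 value rests on 8 UMIs and its interval, up to 91.3 cpm, overlaps theirs. Day 7 MuSCs stood at 119 cpm (107 to 133). The 174 of them with a UMI held FAP markers at 682 cpm and muscle stem markers at 219 cpm, against 237 and 360 cpm in the other 222, and the part of other cells in this level was not tested.

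Mmp3, stromelysin 1, cuts proteoglycans, laminin and fibronectin and can activate other metalloproteases. Mmp3 and Mmp12 lie 76322 bases apart on chromosome 9 in the same orientation. Mmp1b, listed as the protein-coding gene between them, also overlaps Mmp12 and had 0 UMIs. Mmp3 and Mmp12 were counted under different labels. Their upstream letters are shown because they are the only members in the RefSeq GRCm38.p6 promoter table with a match to TGANTCA, the letters of the AP-1 motif. The 100 bases before each annotated start are given 5′ to 3′ with the match in capitals. For Mmp12 the start is the second of 2 listed and lies inside the annotated gene.
Mmp3 (chr9:7445722-7445821, plus strand): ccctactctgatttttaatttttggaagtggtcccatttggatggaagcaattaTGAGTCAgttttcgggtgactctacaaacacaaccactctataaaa
Mmp12 (chr9:7347274-7347373, plus strand): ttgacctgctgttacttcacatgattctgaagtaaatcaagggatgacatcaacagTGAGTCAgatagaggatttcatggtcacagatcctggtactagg
The match begins 46 bases before the Mmp3 start and 44 bases before the Mmp12 start. The table holds 6 of the 9 members in 7 windows, and 2 of the 7 had a match in the 250 upstream bases, beside 2217 of all 32851 windows (6.75%). The motif reads the same on both strands and was searched alone. Mmp2, Mmp9 and Mmp19 are not among the windows used here.

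Mmp3 (chr9:7445822-7455975, plus strand) was counted nearly wholly in stromal cells, and the activated label of day 7 stood far above every other. FAPs stood at 50.7 cpm (47.3 to 54.2) without injury, then at 82.4 (76.7 to 88.5), 225 (208 to 243) and 175 (167 to 182) cpm at days 2, 5 and 7. FAPs (activated) stood at 953 cpm (912 to 996), a log2 ratio of 2.45 (2.36 to 2.54) over the FAPs of the same day. That mRNA came from a minority of the cells. It was seen in 101 of 352 cells (28.7%, or 17.0% after thinning), 56.1% of it lay in 10 cells, and 1 cell held 215 UMIs. The 101 cells had FAP markers at a mean of 7748 cpm against 8071 cpm in the other 251, monocyte markers at 785 against 350 cpm, tenocyte markers at 106 against 34.2 cpm, and a median of 7353 against 4566 UMIs. In day 7 FAPs a UMI was seen in 28.4% of cells (10.0% after thinning), against 2.19% of Anti-inflammatory macrophages (0.459% after thinning). With at most 10 UMIs of the gene counted per cell, a limit chosen after the data were seen, FAPs (activated) stood at 280.7 cpm, FAPs at 125 and tenocytes at 87.4, in the same order. Day 7 tenocytes stood at 121 cpm (97.3 to 149). Of 38 endothelial UMIs at day 0, 30 lay in 1 cell, so that day's 12.2 cpm gives no level for endothelial cells in general, and later days stood at 1.91 to 5.79 cpm.

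Mmp19 encodes a metalloprotease found on myeloid cells and in vessel walls (chr10:128790910-128800824, plus strand). It overlaps Tmem198b on the other strand, which had 1336 UMIs of its own against 3700. FAPs stood at 15.6 cpm (13.7 to 17.6) without injury, then at 84.9 (79.1 to 91.1), 44.9 (37.6 to 53.3) and 83.8 (78.8 to 89.1) cpm at days 2, 5 and 7. Day 2 and day 7 were the high days and overlapped. A UMI was seen in 58.3% of day 2 FAPs (8.25% after thinning) and in 17.1% of the cells labelled Immune that day (1.79% after thinning), which stood at 20.8 cpm. At day 0 the label Immune stood highest at 63.5 cpm (52.0 to 76.8), from 106 UMIs in 32 cells, 32 of them in 1 cell. With at most 10 UMIs counted per cell it was 50.3 cpm, still above the FAPs of that day. Anti-inflammatory macrophages stood at 32.5 cpm (23.6 to 43.6) at day 5 and 13.7 (11.9 to 15.8) at day 7. FAPs (activated) stood at 43.5 cpm, below the FAPs of that day. Endothelial cells held little, with 5.80, 7.62 and 1.70 cpm at days 0, 2 and 7 and 0 UMIs at day 5, where a floor of 3 counts would be 17.4 cpm.

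Mmp9 encodes gelatinase B, an enzyme best known from neutrophils and macrophages (chr2:164940780-164955850, plus strand), and it was the scarcest member with 461 UMIs in all. At day 0 the endothelial label stood at 49.9 cpm (42.4 to 58.5), yet all 155 UMIs came from 4 of 1089 cells and 153 of them from 2 cells. Those 4 cells had endothelial markers at a mean of 260 cpm against 824 cpm in the rest, macrophage markers at 89.9 against 9.16 cpm, and neutrophil markers at 0. In the day 0 label Immune, which stood at 29.3 cpm (21.7 to 38.8), the 49 UMIs came from 11 cells. Those 11 cells held neutrophil markers at a mean of 36806 cpm, against 67.3 cpm in the other 286 cells of the label. The Mmp9 mRNA of uninjured muscle thus came from a handful of cells under both labels. After injury endothelial cells had 0 UMIs, where the floor of 3 counts would be 5.72, 17.4 and 1.02 cpm at days 2, 5 and 7, and the day 2 label Immune stood at 0.675 cpm. In injured muscle the FAPs held most of the few counts: 12.4 cpm (10.2 to 14.9) at day 2 from 75 of 667 cells, 2.40 cpm from 7 UMIs at day 5 and 5.85 cpm (4.58 to 7.36) at day 7. At day 0 they stood at 0.490 cpm from 8 UMIs. The day 2 share of FAPs with a UMI was 11.2% (1.20% after thinning, close to the level of 1 UMI) against 0.734% of the cells labelled Immune. The day 2 FAPs with Mmp9 held macrophage markers at 248 cpm and those without at 291 cpm, and red cell markers at 117 and 17.6 cpm. At day 7 the 55 FAPs with Mmp9 held neutrophil markers at 88.2 cpm, against 0.667 cpm in the other 1482, and their part in the count was not tested.

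Mmp12 encodes macrophage elastase (chr9:7344381-7369499, plus strand). The label Immune stood at 21.6 cpm (15.1 to 29.8) at day 0 and 88.0 cpm (85.1 to 90.9) at day 2, where Macrophages/APCs stood at 112 (103 to 122). Anti-inflammatory macrophages stood at 147 cpm (127 to 169) at day 5 and 312 cpm (303 to 321) at day 7. The levels of days 2, 5 and 7 are means that lean on a few very rich cells. A UMI was seen in 15.9% of the day 2 label Immune, 10.6% of Macrophages/APCs, 5.56% of the day 5 and 16.2% of the day 7 Anti-inflammatory macrophages. After thinning the shares were 3.67%, 3.85%, 2.78% and 6.94%. The 10 richest cells held 46.5%, 65.2%, 91.0% and 46.6% of the UMIs, and single cells held up to 517 UMIs at day 2, 85 at day 5 and 370 at day 7. With at most 10 UMIs counted per cell the levels were 40.6, 55.0, 66.5 and 95.5 cpm, in the same order. In day 7 FAPs (median 7669 UMIs) the share was 3.19%, or 0.260% after thinning.

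Outside the immune labels Mmp12 was set beside the macrophage marker content, both as a percent of the main macrophage label of the day. Day 2 FAPs stood at 9.12 cpm, 10.4% of the level under Immune, with the macrophage markers at a median of 6.30% (5.53% to 7.49%). The 2 did not go together in every label. Day 7 FAPs had 1.59% of Mmp12 at 2.59% of the markers, and day 7 mature muscle had 0 UMIs at 8.79%. Day 5 endothelial cells had 11.8% at 1.26%, but from only 3 UMIs of Mmp12. Day 7 MuSCs stood at 86.0 cpm, and the 18 of 396 cells with a UMI held macrophage markers at 2655 cpm and muscle stem markers at 131 cpm, against 467 and 306 cpm in the rest. In the activated FAPs, 43 of 46 UMIs lay in 1 cell, and in day 7 endothelial cells 34 of 51. The part that free RNA or mixed droplets have in these counts was not tested.

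**Figure D3:**
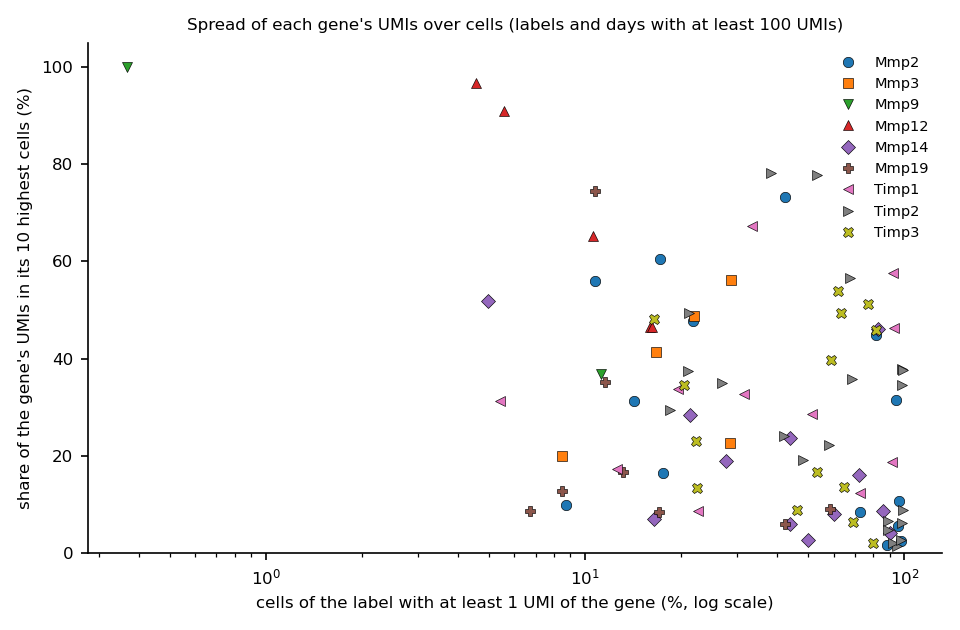
Spread of each gene over the cells of a label, for label and day groups with at least 100 UMIs of the gene and at least 50 cells. The horizontal log axis gives the percent of cells with at least 1 UMI and the vertical axis the percent of the gene's UMIs in its 10 richest cells, which also depends on the number of cells; Mmp12 in day 5 Anti-inflammatory macrophages (5.56% of cells, 91.0% of UMIs) lies far from Mmp2 in day 7 FAPs (97.3%, 2.45%).

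Timp1 encodes a secreted inhibitor that wounded and inflamed tissue makes (chrX:20870166-20874735, plus strand, within the span of Syn1, which lies on the other strand and had 135 UMIs). FAPs stood at 45.2 cpm (42.0 to 48.5) without injury, then at 889.8 (871 to 909), 295 (275 to 315) and 369 (359 to 380.4) cpm at days 2, 5 and 7. The day 2 level was the highest of the FAPs, and all 3 injury days stood above day 0. Day 7 tenocytes stood higher than any other group at 2319 cpm (2211 to 2431), against 109.9 cpm (80.2 to 147) at day 0. A UMI was seen in 81 of these 88 tenocytes, 57.7% of the UMIs lay in 10 of them, and the level was 751 cpm with at most 10 UMIs counted per cell. In day 2 FAPs it was 404 cpm with this limit, and 1 cell held 550 UMIs. The tenocytes stood above the FAPs of either day with this limit too. Day 2 MuSCs stood at 224 cpm (202 to 247), with a UMI in 54 of 58 cells, and day 7 MuSCs at 216 (199 to 234) in 132 of 396. At day 7 the MuSCs with a UMI held FAP markers at 814 cpm and those without at 230 cpm. A UMI was seen in 91.3% of day 2 FAPs and 22.6% of the cells labelled Immune, or 39.4% and 2.41% after thinning. Macrophage and endothelial labels stayed low: the day 2 label Immune stood at 29.1 cpm, Anti-inflammatory macrophages at 22.9 and 9.79 cpm, and endothelial cells at 12.6, 24.8, 11.6 and 23.5 cpm over the 4 days.

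Timp2 encodes the inhibitor that forms the complex with MMP14 on the cell surface (chr11:118301069-118355740, minus strand), and it had the most UMIs of the members, 103388. FAPs stood at 1414 cpm (1396 to 1432), 759.9 (742 to 778), 1061 (1024 to 1099) and 996 (979 to 1014) at days 0, 2, 5 and 7. Their day 2 level was the lowest, as for Mmp2. Labels led by macrophage markers stood near the FAP level on 2 days. The day 2 label Immune stood at 814 cpm (805 to 823), above the FAPs of that day, and day 7 Anti-inflammatory macrophages at 959.6 cpm (944 to 976), 96.3% of the FAPs. Neither was confined to a few cells. A UMI was seen in 92.5% and 89.1% of the cells of these labels, or 45.8% and 49.9% after thinning. The share was 25.4% in the day 2 cells labelled B cells (4.14% after thinning). With at most 10 UMIs counted per cell, the day 2 label Immune stood at 502 cpm, below the FAPs of that day at 534. The day 7 Anti-inflammatory macrophages stood at 655 cpm with this limit and the FAPs at 807. In between, day 5 Anti-inflammatory macrophages stood at only 286 cpm (259 to 316). The label Macrophages/APCs stood at 137 cpm at day 2 and 57.7 cpm at day 7. FAPs (activated) stood at 1785 cpm (1729 to 1843), and tenocytes at 2001 and 1919 cpm at days 0 and 7, overlapping. Endothelial cells stood at 202, 248, 63.7 and 117 cpm on the 4 days.

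Timp3 encodes the inhibitor that stays bound to the matrix and also blocks ADAM and ADAMTS enzymes (chr10:86300372-86349506, plus strand, within the span of Syn3, which had 167 UMIs). In uninjured muscle it was high in vessel and stromal cells alike. At day 0 the smooth muscle label stood at 882 cpm (776.1 to 997.9), tenocytes at 806 (722 to 898), endothelial cells at 604 (577 to 632) and FAPs at 572 (561 to 584). The first 2 overlap, as do the last 2. After injury FAPs stood at 44.8 (40.6 to 49.4), 310.3 (290.4 to 331) and 50.2 (46.3 to 54.3) cpm at days 2, 5 and 7, so that they were low, then nearer the day 0 level, then low again. Endothelial cells stood at 223 cpm (184 to 267), 574 (466 to 698) and 293 (273 to 313), above the FAPs on each of these days. The share of FAPs with a UMI was 79.8%, 22.2%, 46.3% and 22.4%, or 41.1%, 5.10%, 28.9% and 5.60% after thinning. The thinned shares have the order of the unthinned ones. FAPs (activated) stood at 205 cpm (186 to 225), above the day 7 FAPs. Immune labels held little, with 62.3 cpm at day 0 and 0.750 cpm at day 2 under Immune and 3.06 cpm in day 7 Anti-inflammatory macrophages.

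**Figure D4:**
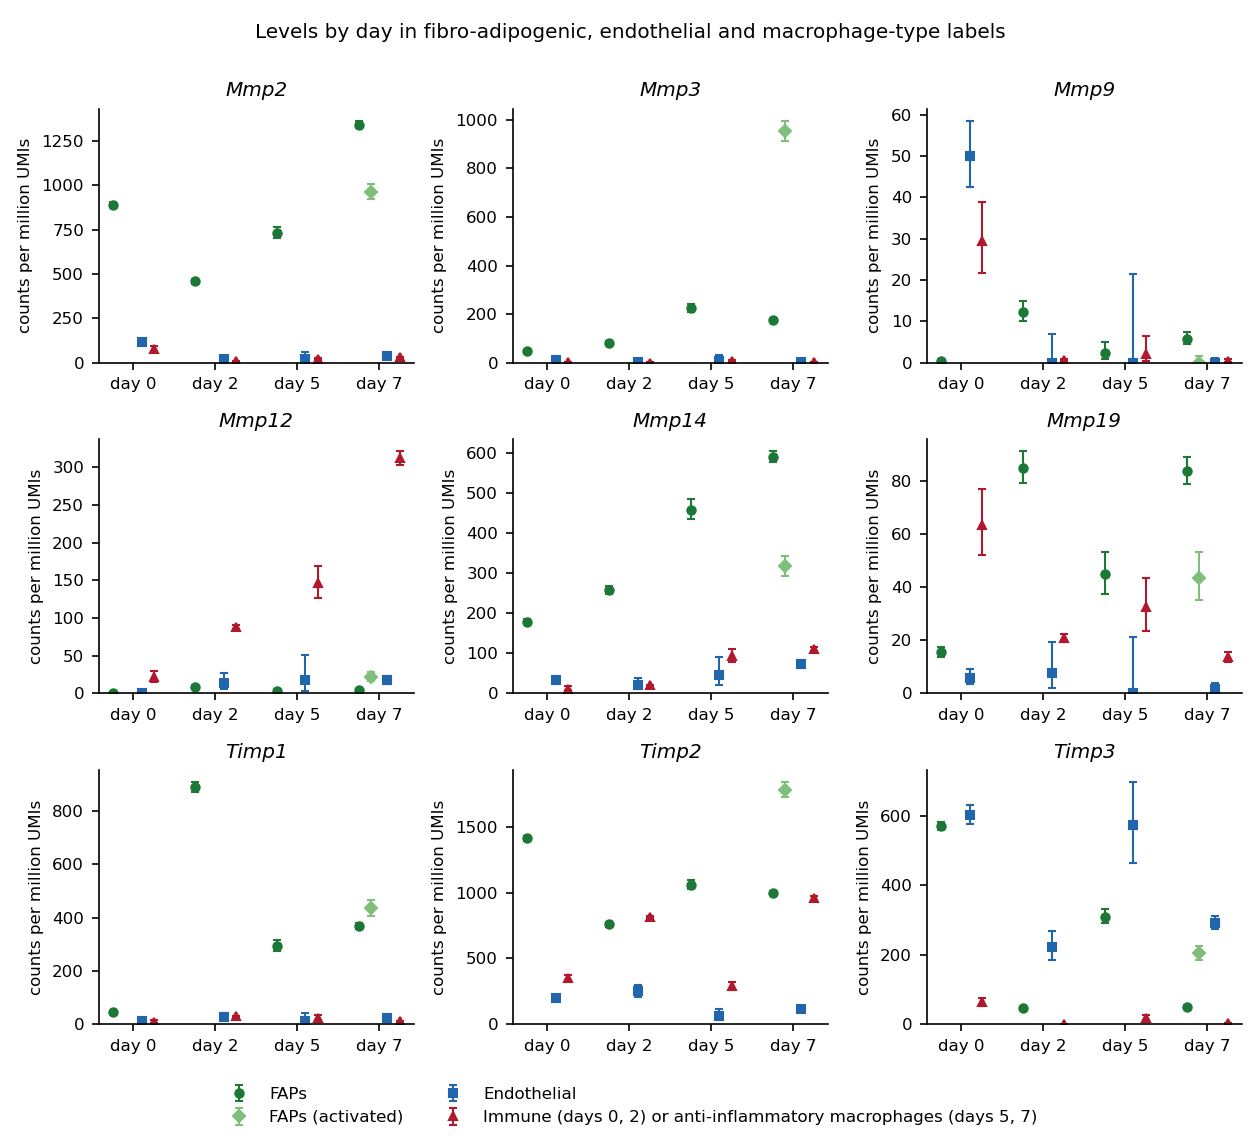
Level in cpm of each gene by day in cells labelled FAPs, FAPs (activated), Endothelial, and Immune (days 0 and 2) or Anti-inflammatory macrophages (days 5 and 7). Bars are exact 95% Poisson intervals of the counts, with 1 matrix per day; in FAPs Timp1 peaks at day 2 (889.8 cpm), Mmp14 is highest at day 7 (591 cpm), and Timp3 is low at days 2 and 7.

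How many members stood at least 2-fold from day 0 within a class was then counted, among genes with at least 20 UMIs over both days. At day 7 the FAP class pools FAPs and FAPs (activated). In FAPs, day 2 had 4 of 9 members higher (10.9% of all genes) and 1 lower (14.1%). The 4 were Mmp9, Mmp12, Mmp19 with a log2 ratio of 2.44 (2.24 to 2.65) and Timp1 with 4.30 (4.19 to 4.41). Mmp9 had 4.66 (3.63 to 5.91), and Mmp12 had 6.22 (4.32 to 9.29) from 84 against 2 UMIs. Timp3 was the lower one at -3.67 (-3.82 to -3.53), while Mmp2 and Timp2 stood just inside the 2-fold bound at -0.95 and -0.90. Day 5 had 4 of 7 counted members higher (10.2%) and 0 lower (10.3%). They were Mmp3 at 2.15, Mmp14 at 1.36, Mmp19 at 1.53 and Timp1 at 2.71, and Timp3 stood at -0.88 (-0.98 to -0.78). Day 7 had 6 of 9 higher (9.99%) and 1 lower (10.6%). Mmp3 stood at 2.51, Mmp9 at 3.35, Mmp12 at 5.92 (2 UMIs at day 0), Mmp14 at 1.62, Mmp19 at 2.32 and Timp1 at 3.07, and Timp3 at -2.97 (-3.07 to -2.88). The median over all counted genes was -0.17, -0.01 and -0.08 on the 3 days. With a filter of 100 UMIs over both days, 3 members were higher at day 2 and 5 at day 7, and 5 were higher at day 7 without cells that held 3 or more macrophage marker UMIs.

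Between injury days, FAPs differed as follows. Day 5 over day 2 had 2 of 9 members higher (15.9%) and 3 lower (11.6%). Timp3 at 2.79 and Mmp3 at 1.45 were higher, and Mmp9 at -2.37, Mmp12 at -1.56 and Timp1 at -1.59 were lower. The Mmp3 ratio was 0.70 with cells thinned to 1000 UMIs, and the Mmp12 ratio -0.58 without the 25% of cells richest in macrophage markers. Mmp19, at -0.92, was past 2-fold in 4 alternatives, from -1.05 after centring to -1.56 after thinning. Day 7 over day 5 had 2 of 9 higher (9.69%) and 1 lower (11.9%). Timp3 was lower at -2.09 (-2.22 to -1.96), Mmp9 had 1.06 (-0.06 to 2.42), and Mmp12 had 1.27 (0.29 to 2.43), which turned to -0.20 without cells that held 3 or more macrophage marker UMIs.

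Endothelial cells had 0 of 8 members higher (6.58%) and 4 lower (19.7%) at day 2, and 0 of 7 higher (13.8%) and 4 lower (15.6%) at day 5. Mmp2 was lower on both days, at -2.51 (-3.53 to -1.66) and, from 4 UMIs, at -2.37. The FAP markers in this label, given above for day 0, stood at a median of 0.96% and 2.37% of the FAP level on these days. Timp3 was lower at day 2, at -1.44 (-1.72 to -1.17), and stood at -0.07 (-0.38 to 0.22) at day 5. Timp2 was lower at day 5, at -1.66, and stood at -0.90 after thinning. Mmp3 and Mmp9 were lower on both days too, against day 0 levels that rest on a few cells. Mmp14 at day 5, from 8 UMIs, stood at 0.47, with an interval that spans 0, and was past 2-fold in 4 alternatives, from 1.01 to 2.55. Timp1 at day 5 was -0.12, and 1.43 as a mean over cells. At day 7, 2 of 9 were higher (7.08%) and 5 lower (10%). The higher ones were Mmp14 at 1.14 (0.80 to 1.49) and Mmp12, the latter with 34 of its 51 UMIs in 1 cell and 0 at day 0. Timp3 stood at -1.04 (-1.16 to -0.93), which was -0.94 after centring on the median gene. Mmp2, Mmp3, Mmp9 and Mmp19 were the other lower ones. Mmp2 stood at -1.69, and at -0.89 after thinning, and the median FAP marker in this label was at 1.31% of what FAPs held, after 12.8% in uninjured muscle. Timp1 at 0.90 (0.32 to 1.51) was past 2-fold in 5 alternatives, up to 1.87, and the Mmp3 and Mmp9 levels at day 0 rest on the few cells described above. Removing the 25% of cells richest in macrophage markers left 2 members lower at day 7. Day 5 over day 2 had 1 of 2 counted members higher (17.5%), Timp3, and 1 lower (17.2%), Timp2. Day 7 over day 5 had 1 of 6 higher (14.8%), Timp1 from 2 UMIs at day 5, and 0 lower (17.6%).

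Among macrophages, the comparison of a single label was Anti-inflammatory macrophages at day 7 over day 5. Of 8 members counted, 2 were higher (11.1%) and 3 lower (18.2%). Timp2 at 1.74 (1.60 to 1.89) and Mmp12 at 1.09 (0.88 to 1.30) were higher. The macrophage markers of this label were higher at day 7 too. Their mean was 2114 cpm at day 5 and 5443 cpm at day 7, and their median 299 and 911 cpm. The part of this difference in the Timp2 and Mmp12 ratios was not tested. Mmp19 at -1.24 (-1.72 to -0.74), Timp1 at -1.23 (-1.79 to -0.62) and Timp3 at -2.47 (-3.23 to -1.68) were lower, and Mmp14 stood at 0.24 (-0.02 to 0.51). The median FAP marker in this label was at 2.25% of what FAPs held at day 5 and at 1.07% at day 7, and their part in the Timp1 and Timp3 ratios was not tested. The Mmp12 ratio depends on rich cells: over all macrophage labels it was 1.49, and 0.12 without the 5% of cells with the most UMIs. The label Immune at day 2 over day 0 had 3 of 9 members higher (8.76%) and 4 lower (25.1%). Mmp12 at 2.03 (1.56 to 2.54), Timp2 at 1.23 (1.11 to 1.35) and Timp1 at 1.80 (1.04 to 2.67) were the higher ones. Mmp9 at -5.44, Timp3 at -6.38, Mmp2 at -3.26 and Mmp19 at -1.61 were lower, and the median FAP marker in this label was at 7.61% of the FAP level at day 0 and 0.994% at day 2. The day 0 Mmp9 count lay in 11 cells, with neutrophil markers at a mean of 36806 cpm. Macrophage markers of the label stood at 1903 cpm at day 0 and 4133 cpm at day 2. Dendritic markers stood at 1816 cpm at day 0. At day 2 they stood at 155 and 173 cpm in cells with and without Mmp12. The part of this makeup in the ratios was not tested. All macrophage labels together, whose makeup differs by day, had 4 of 8 members higher (21.5%) and 0 lower (9.37%) at day 5 over day 2, and 2 of 8 (11.6%) and 3 (23.6%) at day 7 over day 5. At day 7 over day 2 they had 6 of 8 higher (12.7%) and 1 lower (8.83%), with Timp2 at 2.62 and Timp1 at -2.25. The day 2 side of these comparisons is Macrophages/APCs alone and leaves out Immune, the label led by macrophage markers. Timp2 stood at 137 cpm in Macrophages/APCs and at 814 cpm in Immune, so the ratio of 2.62 does not hold against Immune. MuSCs at day 7 over day 2 had 4 of 6 higher (25.9%) and 0 lower (8.58%): Mmp2, Mmp12, Mmp14 and Timp3. In this label the median FAP marker went from 2.13% to 4.89% of the FAP level and the median macrophage marker from 4.49% to 12.0% of the main macrophage label's. Their Timp1 ratio was -0.05 (-0.24 to 0.14), and Mmp12 and Timp3 were within 2-fold after thinning, at 0.93 and 0.85.

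Within a day, FAPs stood above macrophage labels for nearly the whole family. At day 2, 8 of 9 members were at least 2-fold higher in FAPs (31.2%) and 1 lower (14.1%), at day 5 6 of 8 (26.4%) and 1 (15.9%), and at day 7 7 of 9 (31.4%) and 1 (15.3%). The lower one was Mmp12 each time, at -3.62 (-3.97 to -3.28), -4.97 (-6.12 to -4.02) and -5.20 (-5.49 to -4.92). The macrophage labels of day 2 leave out Immune, so the Timp2 ratio of 2.47 on that day does not hold for the cells labelled Immune. At day 7 the Timp2 ratio was 0.40 (0.37 to 0.43). Against endothelial cells, FAPs had 6 of 8 members higher (17.4%) and 1 lower (17.9%) at day 0, and 7 of 9 higher (14.7%) and 1 lower (18.6%) at day 2. At day 5 they had 6 of 7 higher (15%) and 0 lower (21.6%), and at day 7 7 of 9 higher (17.8%) and 2 lower (20.7%). The lower members were Mmp9 at day 0 (-6.67, from the 4 endothelial cells above), Timp3 at day 2, and Timp3 and Mmp12 at day 7. Mmp12 stood at -1.23 (-1.72 to -0.72) there, and at 0.067 without cells that held 3 or more macrophage marker UMIs. The Timp3 ratio was -0.08 (-0.15 to -0.01), -2.31 (-2.61 to -2.00), -0.89 (-1.19 to -0.57) and -2.01 (-2.14 to -1.87) on the 4 days. FAPs were the class with the highest level for 3, 6, 7 and 3 of the 9 members at days 0, 2, 5 and 7. These counts are among 7 classes at days 0 and 7 and among 5, without tenocytes, at days 2 and 5. The 2 highest classes overlapped for Mmp14 and Timp3 at day 0, Timp2 at day 2 and Mmp9 at day 5. At day 7 they overlapped for Mmp2 and Mmp9. Tenocytes stood highest for Timp1 and Timp2 at day 0 and for Mmp2, Mmp14, Timp1 and Timp2 at day 7. With at most 10 UMIs counted per cell, day 7 tenocytes stood below the label FAPs for Mmp2 (827 and 928 cpm). The same held for Mmp14 (469 and 524 cpm), while for Timp1 and Timp2 tenocytes stayed above that label. The Mmp9 order at day 5 rests on 7 against 5 UMIs.

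The stromal labels of day 7 differed among themselves in both enzymes and inhibitors. FAPs (activated) over FAPs had 3 of 9 members at least 2-fold higher (5.57%) and 1 lower (13.6%). Mmp3 at 2.45 and Timp3 at 2.03 (1.85 to 2.21) were higher, and Mmp12 at 2.14 rests on 1 cell. Mmp9 was the lower one, with 0 UMIs against 72. Mmp14 at -0.89 (-1.01 to -0.78), Mmp19 at -0.94 (-1.27 to -0.64), Timp2 at 0.84 (0.79 to 0.89), Mmp2 at -0.48 and Timp1 at 0.24 stayed within 2-fold. An enzyme and an inhibitor thus stood out in the activated label. Tenocytes over FAPs had 2 of 9 higher (8.34%) and 2 lower (11.3%). Timp1 at 2.65 (2.57 to 2.73) and Timp3 at 1.70 (1.40 to 1.98) were higher, and Mmp19 at -2.64 (-3.70 to -1.75) and Mmp9 at -1.12 (-4.19 to 0.79) lower. Mmp2 and Mmp14 did not differ beyond counting error, at -0.00 (-0.10 to 0.09) and 0.12 (-0.02 to 0.25). Against day 0, tenocytes had 4 of 6 members higher (12.9%) and 1 lower (7.8%). Timp1 at 4.40 (3.97 to 4.86), Mmp3 at 2.82 (1.72 to 4.18), Mmp14 at 2.79 (2.31 to 3.31) and Mmp2 at 1.03 were higher and Timp3 at -2.31 (-2.62 to -2.00) lower.

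**Figure D5:**
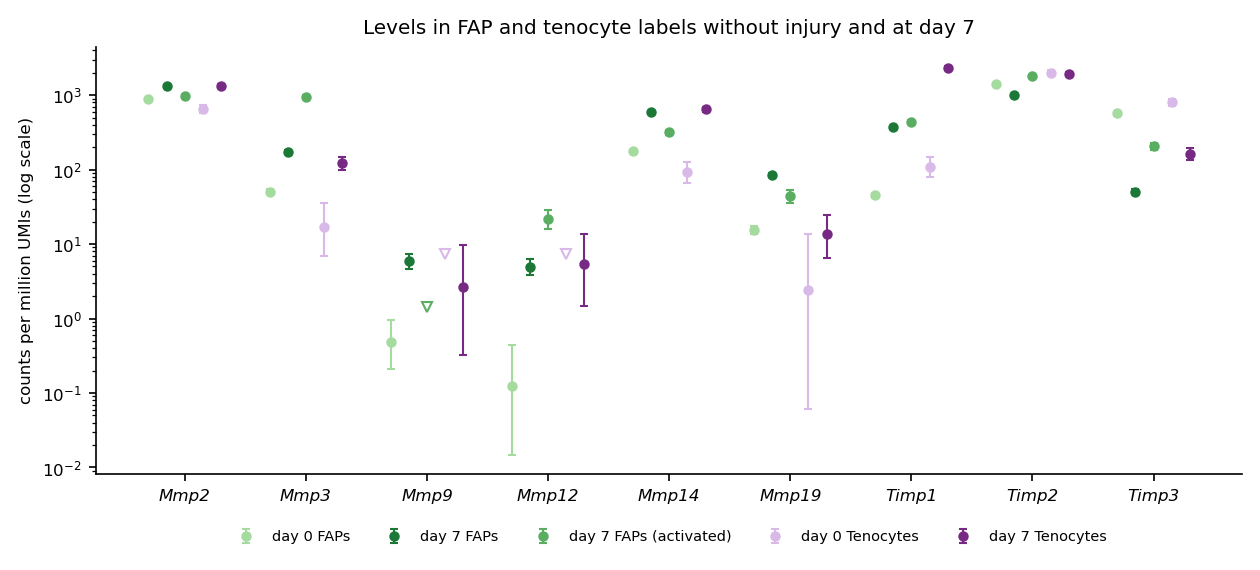
Level in cpm on a log axis of the 9 genes in day 0 and day 7 FAPs, day 7 FAPs (activated), and day 0 and day 7 tenocytes, with exact 95% Poisson intervals. Open triangles mark the floor of 3 counts where a label had 0 UMIs; activated FAPs stand highest for Mmp3 (953 cpm) and day 7 tenocytes for Timp1 (2319 cpm).

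How enzymes and inhibitors met in single cells was read in FAPs thinned to 1000 UMIs. At least 1 UMI of any of the 6 metalloproteases was seen in 60.9%, 58.9%, 63.9% and 83.8% of cells labelled FAPs at days 0, 2, 5 and 7, and in 75.0% of FAPs (activated). For any of the 3 TIMPs the shares were 79.8%, 71.4%, 74.5% and 70.8%, and 88.1%. Day 7 FAPs were thus the only FAP group of these 5 with more cells holding a protease UMI than an inhibitor UMI. Cells with a protease UMI and no inhibitor UMI made up 12.6% (11.5% to 13.7%) of the FAPs of uninjured muscle, 24.7% (22.6% to 27.0%) of day 7 FAPs and 8.24% (5.59% to 11.6%) of the activated label. Cells with the reverse made up 31.5%, 11.7% and 21.3%. Cells with both made up 48.3% at day 0 and 59.1% and 66.8% in the 2 labels of day 7.

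The rest of the pathway was counted from 3 lists of 42 genes. Of 18 other metalloproteases and inhibitors 15 were in the tables. The shares of all genes called in FAPs, higher and lower, were 10.9% and 14.1% at day 2, 10.2% and 10.3% at day 5 and 9.99% and 10.6% at day 7. In FAPs, 4 of 11 counted were at least 2-fold higher and 4 lower at day 2, 1 and 3 of 8 at day 5, and 3 and 2 of 9 at day 7. Mmp13, collagenase 3, had 0 UMIs in FAPs and tenocytes at day 0, stood at 58.3, 36.3 and 31.8 cpm in FAPs at days 2, 5 and 7, and reached 1895 cpm in day 7 tenocytes. Mmp23 stood at 109, 215, 140 and 236 cpm in FAPs. Timp4, an inhibitor of vessels and heart, stood at 587, 116, 40.6 and 152 cpm in endothelial cells and at 7.89 cpm or less in FAPs. Its endothelial level was thus highest in uninjured muscle.

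Of 16 ADAM and ADAMTS genes, 2 were higher and 2 lower in FAPs at day 2, 7 and 0 at day 5, and 3 and 0 at day 7, the day 2 count lying near the shares of all genes. Adamts5, an aggrecanase, stood at 380, 154, 431 and 227 cpm in FAPs. Adamts1, a versican-cutting protease, stood at 251, 128, 452 and 156 cpm in FAPs and at 421, 290, 1223 and 260 cpm in endothelial cells. Adamts2, which trims procollagen, stood at 185, 218, 271 and 316 cpm. Adamts1 and Adamts5 were thus lowest in FAPs at day 2 and highest at day 5. Of 8 plasminogen genes 6 were counted in FAPs: 1 higher and 3 lower at day 2, 2 and 0 at day 5, and 1 and 1 at day 7. Serpine2, a protease inhibitor, stood at 332, 150, 228 and 536 cpm in FAPs, and Plaur, the urokinase receptor, was highest in the macrophage class of day 2 at 240 cpm. Plgrkt, a plasminogen receptor, stood at 70.4 to 97.2 cpm in FAPs.

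The genes most like each member were ranked by Pearson's r of log2(cpm + 10) over the 29 groups of at least 50 cells, among 13370 genes with at least 100 UMIs. The groups of a day share a library, so these values are descriptions. Mmp2 was most like Dcn, Lum and Apod, with r from 0.96, and Mmp3 like Cpxm1 (0.91), Serpina3n (0.89) and Miat (0.88). Mmp12 was nearest Cacna1d (0.89), Fcgr4 (0.89) and Tlr7 (0.88), Mmp14 nearest Numbl (0.89), and Mmp19 nearest Aldh1a2 (0.83). Timp1 was nearest Tmem30b (0.89) and Cthrc1 (0.89), Timp2 nearest Lrp1 (0.93), and Timp3 nearest Clstn1 (0.94) and Limch1 (0.94). Mmp9 had no close match, with 0.69 for Gkn3. With a pseudocount of 1 none of the 3 leading genes of Mmp9, Mmp12 and Timp3 stayed. For Mmp2 and for Mmp14 1 of the 3 stayed, Dcn and Numbl. Between members, r was highest for Mmp2 with Mmp14 (0.82) and Mmp14 with Timp2 (0.80) and lowest for Mmp12 with Timp3 (-0.41).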

How the data were processed

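Single cells of 5 samples (2 runs of day 0, 1 each of days 2, 5 and 7) were deposited as 4 matrices of UMI counts, 1 per day. Per the submitters' processing notes the tools were Cell Ranger 2, Seurat 2.3.4 and R 3.6.2 with the build mm10, with no role given. The deposited counts are raw and list genes seen in at least 3 barcodes. The deposited normalized values are the natural log of 1 plus 10000 times a cell's share, a formula that gave the same values to within 5.33e-15. Cell labels were taken as deposited, and 57 barcodes without a label and 20 metadata columns were not used.

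The 9 members, the labels compared, the 15 marker lists and the 3 pathway lists were chosen with earlier results of these data known. All members are named. Of each pathway list the 3 genes with the most UMIs may be named, and for each member the 3 most similar genes. Labels were grouped into classes by their words, and classes or labels under 50 cells were left out. UMIs were summed per label and given as cpm with exact Poisson intervals, and ratios with exact binomial (Clopper-Pearson) intervals (numpy 2.4.6, pandas 2.3.3, scipy 1.17.1, Python 3.11.15). A member counted where both sides together had 20 UMIs and was called at 2-fold, in 28 comparisons. A count of 0 was replaced by 3 counts, which makes that ratio a bound. Shares of cells with a UMI were also taken after thinning to 1000 UMIs (seed 1 plus the day), leaving out shallower cells. No doublet caller was run. In its place cells rich in UMIs or in another class's markers were left out as alternatives. The ratio code was tested on simulated data. Gene positions are from the GENCODE annotation of GRCm38, and promoter windows from RefSeq GRCm38.p6. No sequence of the proteins was used here.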

Additional observations from a re-analysis of the deposited data

Results flagged for a closer look

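Some ratios differed in sign between classes by more than 2-fold on each side. With 1 library per day these differences were not tested. Mmp9 at day 2 over day 0 had a log2 ratio of 4.66 in FAPs and -3.13 in endothelial cells, the latter a bound from 0 UMIs. At day 7 over day 0 it had 3.35 and -5.61, again a bound, and the endothelial day 0 counts came from 4 cells. Mmp3 had 2.15 in FAPs and -1.08 in endothelial cells at day 5 over day 0, and 2.51 and -1.85 at day 7, with 30 of 38 endothelial UMIs of day 0 in 1 cell. Mmp19 had 2.32 in FAPs and -1.77 in endothelial cells at day 7 over day 0. Timp1 at day 7 over day 5 had -2.11 in macrophage labels and 1.02 in endothelial cells, where day 5 had 2 UMIs.

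The 57 barcodes without a label held 131, 744, 343 and 545 UMIs of the members at days 0, 2, 5 and 7, above the 3 counts that a count of 0 allows. They entered no level.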

How the results depend on the processing

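No paired analysis was possible because each day is 1 matrix and the 2 day 0 runs cannot be separated in it. Thinning kept 84 of 92 calls of at least 2-fold, the mean over cells 106 of 114, centring 65 of 67, leaving out cells with 3 or more UMIs of another class's markers 63 of 67, leaving out the 25% of cells richest in them 88 of 95, and leaving out the 5% with most UMIs 51 of 55. In the same order they brought 6 of 42, 8 of 49, 3 of 44, 7 of 32, 5 of 40 and 6 of 40 other ratios past 2-fold. Of 99 UMI shares, 76 moved when every class was given the same number of cells, and 62 moved after thinning. Of 111 log2 ratios, 89 moved, 3 reversed and 19 stayed with the deposited normalized values. The marker limit removed 666 of 667 day 2 FAPs and was not run where under 50 cells remained. The 25% limit and the limit of 10 UMIs per cell were chosen after seeing the data. The cause of the changes below was not tested.

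These ratios turned. Mmp12 in FAPs at day 7 over day 5 went from 1.27 to -0.20 by the marker limit and -0.59 by the 25% limit, and FAPs over endothelial cells at day 7 from -1.23 to 0.067 and 0.46. Mmp3 in endothelial cells at days 2, 5 and 7 over day 0 went from -2.68, -1.08 and -1.85 to 0.0066, 0.0092 and 0.0083 as differences of the deposited log values, and at day 5 to 0.85 as a mean over cells. Mmp12 in macrophage labels at day 7 over day 2 went from 1.28 to -0.11 without the 5% of cells with most UMIs. Mmp19 in FAPs over endothelial cells at day 5, a bound, went from 1.37 to -0.050 after thinning.

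Counts of members moved as follows. At 1.5-fold, FAPs had 3 in place of 1 lower at day 2 over day 0, 1 in place of 0 lower at day 5 over day 0, and 4 in place of 2 higher at day 5 over day 2 and at day 7 over day 5. Endothelial cells had 1 in place of 0 higher at day 2 over day 0, and 4 in place of 1 higher and 1 in place of 0 lower at day 7 over day 5. Macrophage labels had 2 in place of 1 lower at day 7 over day 2. At 3-fold, FAPs had 2 in place of 4 higher at day 5 over day 0, 1 in place of 2 at day 5 over day 2 and 0 in place of 2 at day 7 over day 5. Endothelial cells had 2 in place of 4 lower at day 5 over day 0, 1 in place of 2 higher at day 7 over day 0, and 0 in place of 1 higher at day 5 over day 2 and day 7 over day 5. Macrophage labels had 1 in place of 2 higher at day 7 over day 5. Centring gave endothelial cells 1 in place of 0 higher at day 2 over day 0.

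A filter of 100 UMIs gave FAPs 1 in place of 2 higher at day 7 over day 5, endothelial cells 1 in place of 2 higher and 3 in place of 5 lower at day 7 over day 0 and 0 in place of 1 higher at day 7 over day 5, and macrophage labels 1 in place of 4 higher at day 5 over day 2. A filter of 5 UMIs gave endothelial cells 1 in place of 0 higher at days 2 and 5 over day 0, 2 in place of 1 both higher and lower at day 5 over day 2, and 1 in place of 0 lower at day 7 over day 5. It gave macrophage labels 2 in place of 1 lower at day 7 over day 2. The marker limit gave FAPs 1 in place of 2 higher at day 7 over day 5. In macrophage labels it gave 1 in place of 4 higher and 1 in place of 0 lower at day 5 over day 2, 4 in place of 2 higher and 1 in place of 3 lower at day 7 over day 5, and 3 in place of 6 higher and 2 in place of 1 lower at day 7 over day 2. The 25% limit gave FAPs 1 in place of 2 higher at day 7 over day 5, endothelial cells 1 in place of 0 higher and 2 in place of 4 lower at day 5 over day 0, 2 in place of 5 lower at day 7 over day 0 and 0 in place of 1 higher at day 7 over day 5, and macrophage labels 1 in place of 0 lower at day 5 over day 2. The highest class did not change in the 2 alternatives run for it, the mean over cells and classes of at least 20 cells.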
